A study of Mus musculus with 22 samples.

Results

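The genes described here are the zinc finger protein genes of the mouse whose symbol begins with Zfp and a digit, measured in epithelial cells of the colon. Members were selected on their symbol and on detection: each is an array probe with 1 annotated symbol of that form, other than Zfp36, with detection (a detection p-value under 0.05) on 5 or more of the 22 arrays. Of 602 Zfp probes of 330 genes on the array, 281 probes of 198 genes met the rule, while 243 probes were detected on no array. The 198 genes compare with 10706 named genes, and the 281 probes with 19993 probes, that passed the same detection filter in the whole series. The arrays came from BALB/c mice, labelled male and 6 to 10 weeks old, that were wild type (WT) or knockout (KO) for pIgR, the polymeric immunoglobulin receptor that epithelial cells use to secrete antibodies into the gut lumen. Mice of both genotypes were left untreated or given an antibiotic for 17 days, which made 4 groups: WT_untreated and WT_antibiotic with 5 arrays each, and KO_untreated and KO_antibiotic with 6 each. In all groups the epithelium was released from the colon with 20 mM EDTA for 25 min on a shaker, and the labels used here do not name the agents or say whether an array held RNA of 1 mouse or of several.

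Zinc finger proteins of the C2H2 type fold short loops around a zinc ion, and a row of such fingers reads a stretch of DNA. Many of those named Zfp in the mouse also carry a KRAB domain, which recruits the corepressor Trim28 and, through it, the histone methyltransferase Setdb1 and heterochromatin proteins. KRAB zinc finger proteins are best known for silencing retroelements, and their genes lie in clusters that grew by duplication. Other proteins that share the name are unrelated in role, such as the RNA-binding protein Zfp36l1, which promotes decay of messenger RNAs with AU-rich elements, and Zfp598, a ubiquitin ligase that acts on stalled ribosomes.

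Pigr, the disrupted gene, had a log2 level of 11.32 to 12.5 on the WT arrays and 8.74 to 10.73 on the KO arrays, and these ranges did not overlap. The labels do not say whether its probe lies inside the disrupted part, so the signal left in KO mice is no measure of the receptor. Between 15975 and 18388 of 45281 probes were detected per array. All 10 epithelial markers examined were detected on every array, among them Epcam, the keratin genes Krt8 and Krt18, and the intestinal transcription factor gene Cdx2. Of the stromal and vascular markers, Col1a1, Col3a1 and Lum were detected on 0 arrays, but Des was detected on 21, Dcn on 20 and Acta2 and Vwf on 19, and leukocyte markers such as Cd74 and Laptm5 on all 22. In KO_untreated, 5 of 6 array descriptions end in a suffix seen in no other group, the exception being KO_untreated 1. For many of the Zfp probes called below, KO_untreated 1 and WT_antibiotic 2 were low and KO_antibiotic 6 high within their groups.

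As a group the Zfp genes were weakly expressed. The level of a probe is its background-corrected, quantile-normalised log2 signal, and the median over the 281 probes was 5.4, against 6.21 over all tested probes, with a range of 4.51 to 10.73. Detection was complete, on all 22 arrays, for 128 of the 281 probes. At the edge of the rule, 9 probes were detected on exactly 5 arrays, such as Zfp607a (mean levels 4.5 to 4.66 in the 4 groups) and Zfp341 (4.58 to 4.61), and 6 probes on exactly 4, such as a probe of Zfp638 (4.48 to 4.63) and Zfp110 (4.36 to 4.6). A constant of 16 is added to the signal before log2, so differences of such dim probes are compressed. There were 132 genes with 1 member probe, 52 with 2 and 14 with 3 or more.

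Somewhat fewer Zfp probes were detected on KO_untreated arrays, with ranges that overlapped those of the other groups. Per array, 180 to 235 of the 281 probes were detected in KO_untreated, against 219 to 247 in WT_untreated, 192 to 247 in WT_antibiotic and 187 to 261 in KO_antibiotic. All KO_untreated arrays lacked 15 probes, whereas all WT_untreated arrays lacked 4, all WT_antibiotic arrays 3 and all KO_antibiotic arrays 2. In total 24 probes were undetected throughout at least 1 group and entered through the others. The same detection filter applied to every tested probe, and the number of all probes detected per array also differed, with a mean of 17360 in KO_untreated and 17833 in WT_untreated.

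The first comparison sets untreated KO against untreated WT mice. Among Zfp genes the differences ran mostly downwards in the KO epithelium: 35 probes of 31 genes fell and 2 probes, of Zfp324 and Zfp629, rose (limma, Benjamini-Hochberg adjusted p under 0.05 over all 19993 tested probes, n = 6 KO and 5 WT arrays). A probe that passed this threshold is said below to be called. The 35 lower probes are 12.5% of the 281, where 5.35% of all tested probes were called lower, and the 2 higher probes are 0.712%, where 5.55% of all tested probes were called higher. In total 13.2% of Zfp probes and 10.9% of all tested probes were called. The median log2 difference, KO minus WT, was -0.08 over the Zfp probes and 0.04 over all tested probes, and 60.5% of Zfp probes lay below 0, against 44.9%. All KO_untreated arrays lay below all WT_untreated arrays for 26 Zfp probes, or 9.25%, against 5.28% of all tested probes, and above them for 1 probe, or 0.356%, against 4.09%. Of the 35 called lower 21 did not overlap between the groups. This was seen on the arrays that gave the calls, so it adds no separate support, and the share among all probes called lower was not counted.

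**Figure D1:**
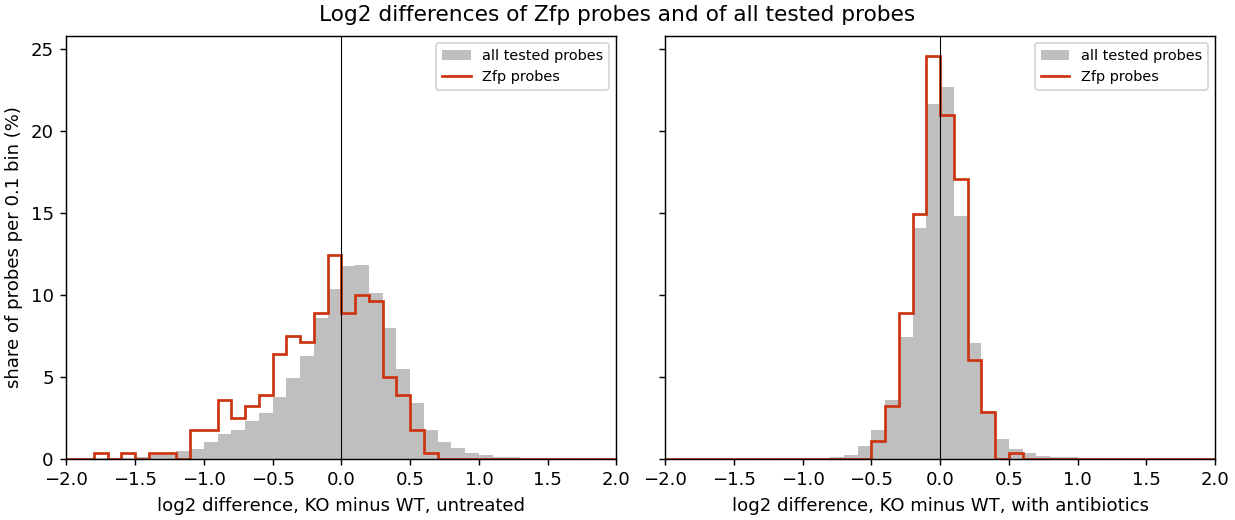
Share of probes per bin of 0.1 in the log2 difference, KO minus WT, for the 281 Zfp probes (red line) and all 19993 tested probes (grey), in untreated mice (left, 6 KO and 5 WT arrays) and with antibiotics (right, 6 KO and 5 WT arrays). Untreated, a larger share of the Zfp probes than of all tested probes lies in the lower tail, with a median of -0.08 against 0.04. With antibiotics the median of the Zfp probes is -0.01 against 0.

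The size of this count rests on single arrays and settings, while lower calls outnumbered higher ones under each setting tried. It was 15 without KO_untreated 1, 17 without KO_untreated 5, 24 without KO_untreated 4, 17 without WT_untreated 4 and 16 without WT_untreated 5, and lower calls outnumbered higher ones in each of the 22 fits that left out 1 array. It was 15 with no filter and 57 with the replicate number as a block. With KO_untreated 1, the array without the suffix, as the only KO_untreated array the count was 1 and 0 of the 37 stayed called, though all 37 kept their sign; the other 5 arrays share the suffix, so what it marks and the genotype cannot be told apart on them. With median scaling over all probes in place of quantile normalisation the count was 5, all lower, and all tested probes then split into 240 higher and 79 lower in place of 1110 and 1070.

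The largest falls were those of Zfp97, Zfp943, Zfp292 and Zfp37. Their proximal promoters are shown first, as the genes whose levels the results turn on, from 250 bases before to 50 bases after the annotated start, read 5′ to 3′ on the strand of the gene. The windows are from RefSeq, assembly GRCm38.p6. Capitals mark the matches of the 10 short motifs given further below.
Zfp97, chr17:17121133-17121432, plus strand: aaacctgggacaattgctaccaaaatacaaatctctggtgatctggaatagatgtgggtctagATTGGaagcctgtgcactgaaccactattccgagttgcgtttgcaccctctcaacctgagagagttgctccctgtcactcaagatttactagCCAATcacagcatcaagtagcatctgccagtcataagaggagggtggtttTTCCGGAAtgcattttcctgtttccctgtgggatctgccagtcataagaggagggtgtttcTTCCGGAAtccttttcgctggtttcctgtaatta
Zfp943, chr17:21962309-21962608, plus strand: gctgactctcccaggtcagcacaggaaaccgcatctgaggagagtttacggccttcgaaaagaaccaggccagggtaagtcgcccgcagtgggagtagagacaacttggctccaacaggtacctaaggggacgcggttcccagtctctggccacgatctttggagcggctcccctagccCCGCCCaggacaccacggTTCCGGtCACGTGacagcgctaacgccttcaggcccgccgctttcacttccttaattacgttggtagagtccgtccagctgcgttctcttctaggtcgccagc
Zfp292, chr4:34882899-34883198, minus strand: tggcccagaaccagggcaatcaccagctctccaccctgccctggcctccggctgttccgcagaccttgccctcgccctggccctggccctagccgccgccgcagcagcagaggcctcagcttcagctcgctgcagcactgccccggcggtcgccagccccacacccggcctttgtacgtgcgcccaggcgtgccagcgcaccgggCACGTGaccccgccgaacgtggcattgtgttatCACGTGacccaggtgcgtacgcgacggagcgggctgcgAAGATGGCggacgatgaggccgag
Zfp37, chr4:62208497-62208796, minus strand: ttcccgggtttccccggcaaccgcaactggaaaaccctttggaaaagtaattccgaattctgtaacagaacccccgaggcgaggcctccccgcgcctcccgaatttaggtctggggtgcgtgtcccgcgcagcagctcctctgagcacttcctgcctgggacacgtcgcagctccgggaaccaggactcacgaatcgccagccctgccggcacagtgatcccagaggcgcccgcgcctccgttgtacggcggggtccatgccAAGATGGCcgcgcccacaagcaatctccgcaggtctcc

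Zfp97 (ILMN_3145782), a chromosome 17 gene, had log2 levels of 6.55, 6.62, 7.29, 7.14 and 7.11 on the WT_untreated arrays, and in KO_untreated its lowest, median and highest levels were 4.81, 4.97 and 6.2. The highest KO array was below the lowest WT array. Zfp97 was 3.31-fold lower in KO mice (log2 -1.73, SE 0.31, adjusted p = 0.00264 by limma), the largest fall among the Zfp probes, and it stayed called without any 1 of the 22 arrays (highest adjusted p 0.00857). With antibiotics its levels were 5.85, 6.02, 6.5, 6.76 and 6.3 in WT and 5.12, 6.2 and 7.49 (lowest, median, highest) in KO, and these ranges overlapped (log2 difference -0.10).

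Zfp943 (ILMN_1214239) stood at 7.96, 8.04, 8.05, 8.32 and 8.38 in WT_untreated and at 6.22, 6.71 and 6.89 (lowest, median, highest) in KO_untreated, again with no overlap. It fell 2.92-fold (log2 -1.55, SE 0.25, adjusted p = 0.00131 by limma), with the lowest adjusted p of the Zfp probes. A second, dimmer probe of Zfp943 (ILMN_3006178) differed by -0.15 and was not called (adjusted p = 0.471). With antibiotics the called probe stood at 7.29, 7.09, 8.01, 7.77 and 7.65 in WT and at 6.54, 7.24 and 8.58 in KO, overlapping.

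Zfp292, whose human counterpart ZNF292 is mutated in neurodevelopmental disorders, was lower with all 3 of its member probes. The first (ILMN_1249547) had levels of 7.72, 7.47, 8.31, 8.71 and 8.47 in WT_untreated and of 5.6, 6.88 and 7.22 (lowest, median, highest) in KO_untreated, and the groups did not overlap. It fell 2.63-fold (log2 -1.40, SE 0.36, adjusted p = 0.0187 by limma), and the other probes differed by -1.09 (adjusted p = 0.0447) and -0.97 (adjusted p = 0.0263). The lowest level of the first, 5.6, was that of KO_untreated 1, and without this array or without WT_untreated 4 it was not called (highest adjusted p 0.0533). The probe at -1.09 lost its call in 14 of the 22 fits that left out 1 array (highest adjusted p 0.121 by limma). The probe at -0.97 lost it in 4 (highest adjusted p 0.0706 by limma). Zfp654 was the other gene with several member probes that were all called, at -1.05 (SE 0.28, adjusted p = 0.0222) and -0.94 (SE 0.25, adjusted p = 0.0199).

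Zfp37 (ILMN_2809334) showed levels of 6.16, 6.36, 6.95, 6.87 and 7.03 in WT_untreated and of 4.88, 5.52 and 5.96 (lowest, median, highest) in KO_untreated, which did not overlap. It fell 2.30-fold (log2 -1.20, SE 0.24, adjusted p = 0.00535 by limma) and stayed called without any 1 array (highest adjusted p 0.0189). Its second probe (ILMN_2576801) differed by -0.47 and was not called (adjusted p = 0.241). With antibiotics Zfp37 was not lower in KO mice: the levels were 6.52, 5.61, 6.24, 6.46 and 6.29 in WT and 5.82, 6.52 and 7.47 in KO (log2 difference 0.35, not called).

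**Figure D2:**
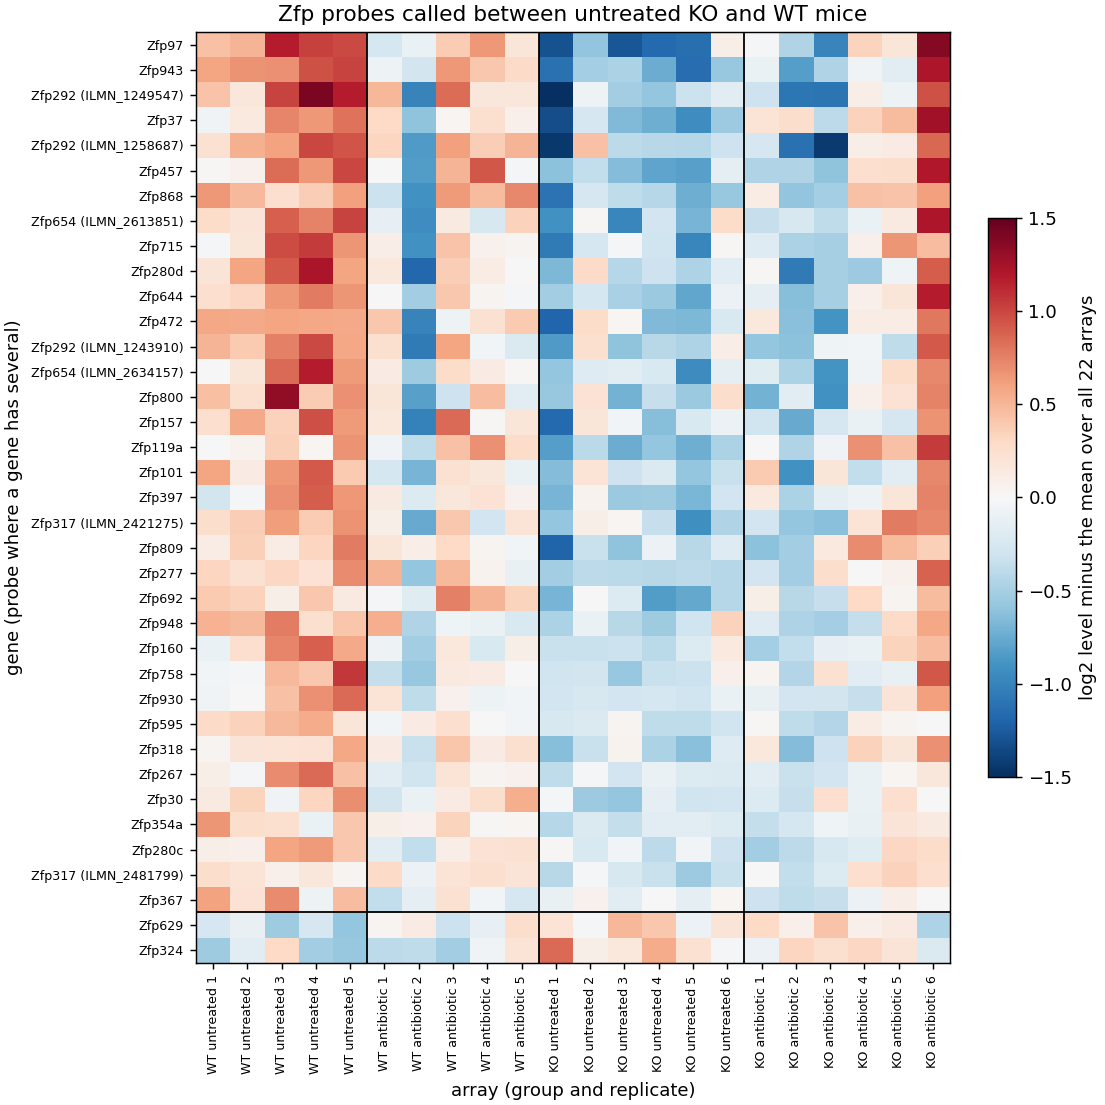
Log2 level of the 37 called Zfp probes (rows, ordered by the untreated difference, the 2 higher probes at the bottom) on each of the 22 arrays (columns, by group), as the difference from the probe's mean over all arrays (blue lower, red higher). The WT_untreated columns are mostly red and the KO_untreated columns mostly blue in the upper 35 rows, KO_antibiotic 6 is red in most of them, and WT_antibiotic 2 is blue in most of them.

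The falls next in size were close to each other. Zfp457 (log2 -1.08, adjusted p = 0.0259), Zfp868 (-1.05, adjusted p = 0.0158), Zfp715 (-1, adjusted p = 0.0229), Zfp280d (-0.99, adjusted p = 0.0322) and Zfp472 (-0.98, adjusted p = 0.0309) were lower by similar amounts in KO mice. Zfp644, whose human counterpart ZNF644 binds the histone methyltransferases G9a and GLP, had levels of 6.75, 6.8, 7.14, 7.27 and 7.16 in WT_untreated and 5.71, 5.99 and 6.41 in KO_untreated, with no overlap (log2 -0.98, SE 0.23, adjusted p = 0.0133). Of the 35 falls, 9 reached log2 -1 or beyond before rounding, and the median was -0.85, a 1.80-fold difference. Zfp809, which silences murine leukaemia virus in mouse embryonic stem cells through Trim28, was among the lower genes (log2 -0.82, SE 0.22, adjusted p = 0.0234). So was Zfp354a, which was undetected on all KO_untreated arrays and was at least 1.20-fold lower (adjusted p = 0.0142). For 3 other probes undetected there, of Zfp277, Zfp930 and Zfp267, the falls were at least 1.5-fold, 1.22-fold and 1.22-fold (adjusted p = 0.0187, 0.0276 and 0.0151); these folds take as the KO level the dimmest detected probe of each array, or the probe itself where brighter.

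Zfp324 and Zfp629, both on chromosome 7, were the called probes that rose. Zfp629 (ILMN_2509052) stood at 5.23, 5.37, 4.95, 5.23 and 4.9 in WT_untreated and at 5.39, 5.68 and 5.98 (lowest, median, highest) in KO_untreated, with no overlap and a log2 difference of 0.54 (SE 0.15, adjusted p = 0.0299 by limma). Zfp324 (ILMN_2687195) had levels of 4.39, 4.76, 5.23, 4.41 and 4.36 in WT_untreated and of 4.91, 5.12 and 5.78 in KO_untreated, which overlapped (log2 0.61, SE 0.18, adjusted p = 0.0368). Each rise lost its call without some single arrays, 5 of them for Zfp629 (highest adjusted p 0.0787) and 7 for Zfp324 (highest adjusted p 0.1).

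**Figure D3:**
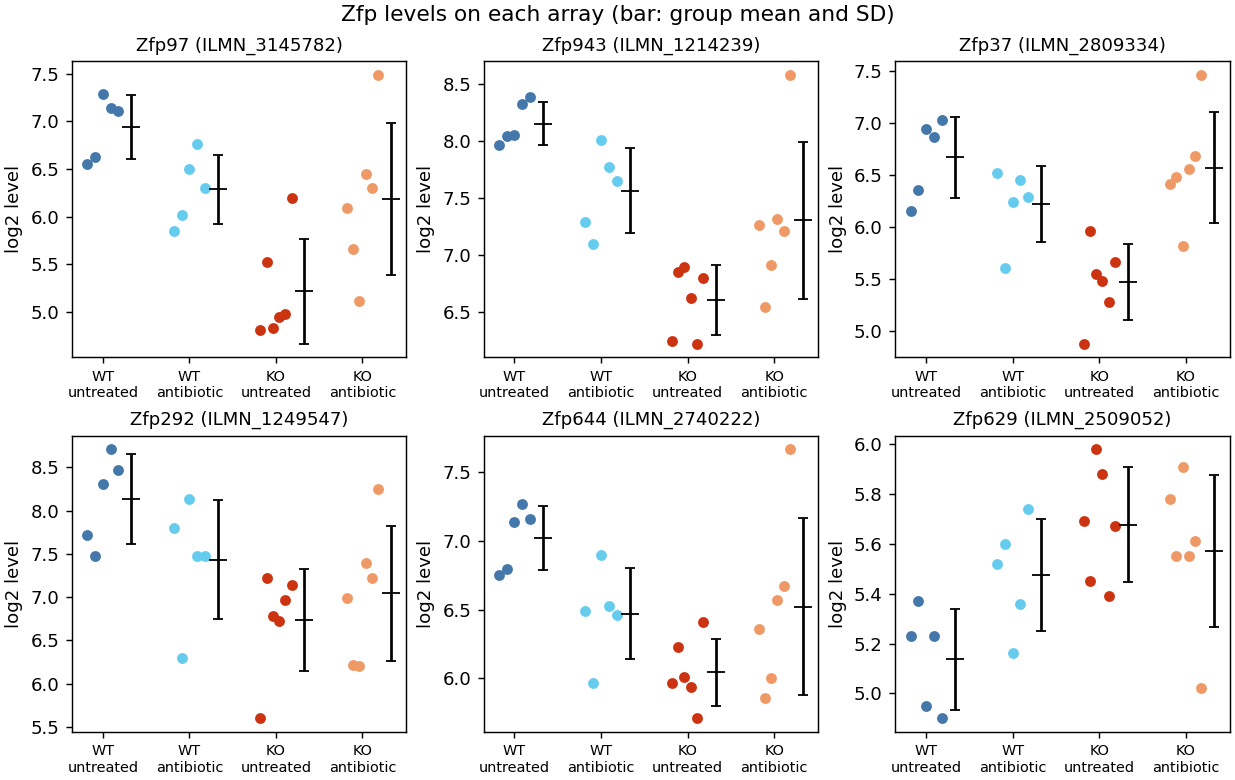
Log2 level of 6 called Zfp probes on each array (points) in the 4 groups, with the group mean and SD beside them (n = 5 WT_untreated, 5 WT_antibiotic, 6 KO_untreated and 6 KO_antibiotic arrays). The first 5 probes are lowest in KO_untreated by mean, and Zfp629 is lowest in WT_untreated; the vertical axes differ between panels and do not start at 0.

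Different probes of 1 gene did not always move alike. Of 66 genes with several member probes, 19 had probes on both sides of 0 in untreated mice, 2 (Zfp292 and Zfp654) had all probes called, and 8 had some called and others not. For Zfp868 the uncalled probe was close to the called one (-0.87, adjusted p = 0.0589), as it was for Zfp472 (-0.81, adjusted p = 0.0711). For Zfp367 the called probe was at -0.44 (adjusted p = 0.0487) and the others at 0.31 and -0.04. In Zfp317 the probes were at -0.83, -0.47 and -0.15, and in Zfp692 at -0.76, -0.32 and -0.24. The second probe of Zfp277 was at -0.38 and not called (adjusted p = 0.132). Which transcripts each probe reads was not analysed here.

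Of 22 listed Zfp genes with well-described roles, 15 had a member probe and 1, Zfp318, was called. Of all 198 Zfp genes, 31 had a called lower probe and 2 a called higher one. By probe, a different unit, 13.2% of all Zfp probes and 10.9% of all tested probes were called. Zfp318, which in mouse B cells is needed to express IgD, had levels of 7.21, 7.36, 7.37, 7.39 and 7.75 in WT_untreated and of 6.53, 6.76 and 7.22 in KO_untreated (log2 -0.62, SE 0.19, adjusted p = 0.0434 by limma), with 1 value of each group overlapping. The call of Zfp318 was lost without any 1 of 11 arrays (highest adjusted p 0.111). Zfp36l1, the messenger RNA decay factor, was not called with any of 3 probes (-0.27, -0.23 and -0.19, lowest adjusted p 0.384), nor was the ribosome-associated ubiquitin ligase gene Zfp598 (0.28, adjusted p = 0.166). Zfp207, which takes part in spindle assembly, differed by -0.13 and 0.06, the pluripotency regulator gene Zfp281 by -0.50 and -0.42 (lowest adjusted p 0.116), the SUMO ligase gene Zfp451 by -0.52 (adjusted p = 0.085) and Zfp638 by -0.70 (adjusted p = 0.0992). The genes Zfp703 (0.48 and 0.28), Zfp750 (0.17), a regulator of epidermal differentiation, Zfp384 (0.25), Zfp335 (0.16), Zfp106 (0.10 and 0.05), Zfp91 (-0.07) and Zfp622 (-0.16) were not called either.

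In untreated mice the partners through which KRAB zinc finger proteins act were not called more often than other probes. Of 22 corepressor and silencing genes listed, 14 had a tested probe, 22 probes in all, and 1 probe rose and 0 fell by limma in untreated KO mice. These called shares, 4.55% higher and 0% lower, stand beside 5.55% and 5.35% of all tested probes. An unadjusted p under 0.05 was reached by 9 of the 22 and by 29.1% of all tested probes. Their median log2 difference was 0.22, against 0.04 over all tested probes. The probe that rose was that of Trim28, the corepressor itself (log2 0.61, SE 0.15, adjusted p = 0.0145). With the antibiotic 5 of the 22 probes fell in KO mice, or 22.7% against 7.06% of all tested probes, and 1 fell in WT mice. In untreated mice other C2H2 families, named Klf, Sp, Zbtb, Zscan, Zkscan, Ikzf and Egr, counted 3 higher and 5 lower of 92 probes, or 3.26% and 5.43%, with a median of -0.06. Among them Zbtb20 (log2 -1.35, SE 0.34, adjusted p = 0.0175), Zbtb33, the gene of the methyl-DNA binding protein Kaiso (-0.87, adjusted p = 0.0364), Zscan26 (-1.11, adjusted p = 0.026) and Zscan12 (-0.62, adjusted p = 0.0489) fell, as did Zbtb21 (-0.42, adjusted p = 0.0357), while Zbtb45 (0.72, adjusted p = 0.0354), Zkscan17 (0.55, adjusted p = 0.0377) and Zbtb5 (0.48, adjusted p = 0.0494) rose. The difference between these families and the Zfp genes was not tested.

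The lower Zfp genes were unevenly spread over the chromosomes, as a description that was not tested. On chromosome 17, 9 of 20 member genes had a lower probe, or 45%, against 4.41% of the 544 tested genes of that chromosome. They were Zfp97, Zfp160, Zfp948, Zfp943, Zfp758, Zfp472, Zfp101, Zfp318 and Zfp119a. On chromosome 7, which holds the most members, 2 of 47 had a lower probe, or 4.26%, against 2.72% of its 846 tested genes, and 2 had a higher one. On chromosome 13 the share was 20% of 15 genes, against 13% of its 369 tested genes. On chromosome 9 it was 27.3% of 11, against 7.58% of 607. Being one of a run of neighbouring Zfp genes did not go with a larger share: of 107 member genes in 30 runs (members at most 10 protein-coding genes apart), 15 had a lower probe, or 14%, and of the 91 others 16, or 17.6%. In the chromosome 17 run of Zfp948, Zfp760, Zfp820, Zfp943, Zfp994 and Zfp758, 3 of 6 were lower, while the nearest neighbours of Zfp943 in it, Zfp820 (0.13 and 0.05) and Zfp994 (-0.60), were not called. Probes of near-identical duplicated genes can share signal, and this was not tested here. The genomic span from start to end had a median of 21522 bases for the 31 lower genes, 16043 bases for the other 167 and 22208 bases for all tested named genes.

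**Figure D4:**
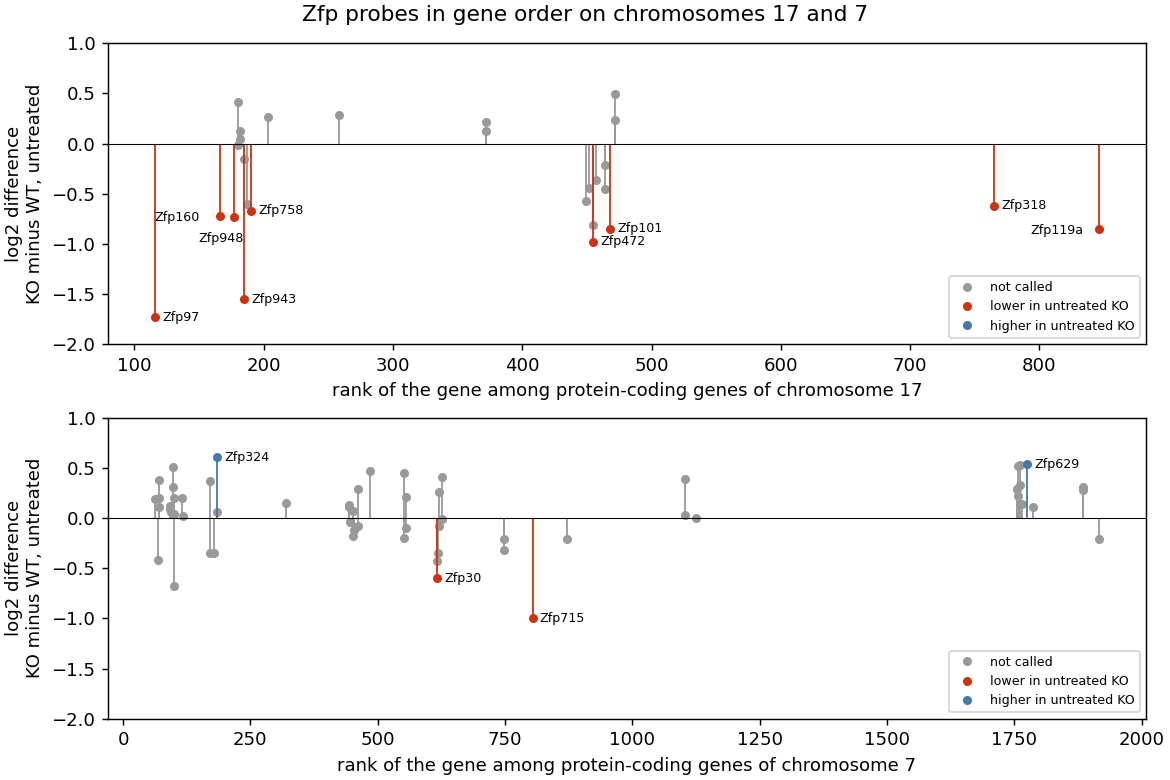
Log2 difference, KO minus WT, in untreated mice for each Zfp probe of chromosomes 17 and 7, placed by the rank of its gene among the protein-coding genes of the chromosome. On chromosome 17, 9 of 20 genes have a called lower probe, and on chromosome 7 they are 2 of 47, with 2 called higher.

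The promoter windows of the lower genes were compared with all others for 10 short motifs on both strands, a set kept after a larger one had been looked at. Of the 31 lower genes 27 had a window, 34 windows in all, and they were set beside 168 windows of other member genes and 32851 of all genes. AAGATGGC, the core of sites of the factor YY1, was found in 14.7% of the lower genes' windows (5 of 34), in 4.76% of other members' and in 2.75% of all. In Zfp292 and Zfp37 it lies just after the annotated start, as the printed windows show. TGACGTCA, the cyclic AMP response element, was found in 11.8%, 4.17% and 1.79%, and TCGCGA in 11.8%, 5.95% and 2.5%. CACGTG, the E box printed in capitals in Zfp943 and Zfp292, was in 8.82%, 6.55% and 7.15%, and GCGCATGC in 8.82%, 6.55% and 2.71%. TTCCGG, of ETS factors and present in Zfp97 and Zfp943, was in 29.4%, 35.1% and 14.9%, GGGCGG in 44.1%, 53.6% and 35.7%, CCAAT in 41.2%, 41.1% and 37.4%, ACTACA in 20.6%, 21.4% and 10.3%, and TATAAA in 5.88%, 8.33% and 13.6%. The median GC content was 55.2% in the lower genes' windows, 57.8% in other members' and 52.7% in all. None of the motifs contains another, some genes have several overlapping windows, and these shares are a description with 4 or 5 windows behind the rarer ones.

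Cell type markers were compared between the same groups, and only the surface colonocyte means did not overlap. The mean log2 level of 10 surface colonocyte markers was 12.02 to 12.21 in KO_untreated and 12.32 to 12.57 in WT_untreated, which did not overlap, and 2 of 18 of their probes fell, of Cyp2c55 and of the chloride exchanger gene Slc26a3. The crypt and dividing cell markers (8 of 10 tested) had a mean of 6.85 to 7.34 against 6.55 to 7.05, leukocyte markers (10 of 15 tested) 6.29 to 7.87 against 6.83 to 7.42, and stromal markers (5 of 10 tested) 5.18 to 6.05 against 5.18 to 5.82. Single probes of these lists were called: the replication gene Mcm2 (0.82, adjusted p = 0.0161) and the endothelial gene Vwf (1.12, adjusted p = 0.00425) rose and the stromal gene Dcn (-1.27, adjusted p = 0.0489) fell, while of 18 leukocyte probes 0 were called by limma (1 at an unadjusted p under 0.05). Of the epithelial markers Krt18 rose (0.72, adjusted p = 0.0109). By list, calls made up 11.1% of surface colonocyte probes, 10% of crypt and dividing cell probes and 7.14% of epithelial probes. Of the 9 stromal probes 11.1% rose and 11.1% fell. The background share in this comparison was 10.9% of 19993 probes, so most lists had no clear excess of calls. Itgam and Cd8a of the leukocyte list and Col1a1, Col3a1 and Lum of the stromal list were detected on 0 arrays. In such bulk samples fewer cells of a type and less RNA per cell cannot be told apart, and the part of cell composition in the Zfp differences was not tested.

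The second comparison sets KO against WT mice given antibiotics, on 11 other arrays. No Zfp probe was called (0 of 281 by limma), and 0.03% of all tested probes were. An unadjusted p under 0.05 was reached by 5 Zfp probes and by 3.27% of all tested probes. The median difference, KO minus WT, was -0.01 over the Zfp probes and 0 over all tested probes. The probes with the smallest p were those of Zfp410 (log2 0.34), which activates the chromatin remodeller gene Chd4, Zfp777 (0.29), Zfp458 (-0.36), Zfp768 (0.51) and Zfp202 (0.30), each with an adjusted p = 1. The 35 probes that were lower in untreated KO mice had differences from -0.48 to 0.35 here, with a median of -0.05, against -1.73 to -0.44 and a median of -0.85 untreated. They were selected on their untreated values, which makes those more extreme, so the 2 ranges are not a like comparison. With antibiotics 23 of the 35 lay below 0, and 0 of them reached an unadjusted p under 0.05.

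**Figure D5:**
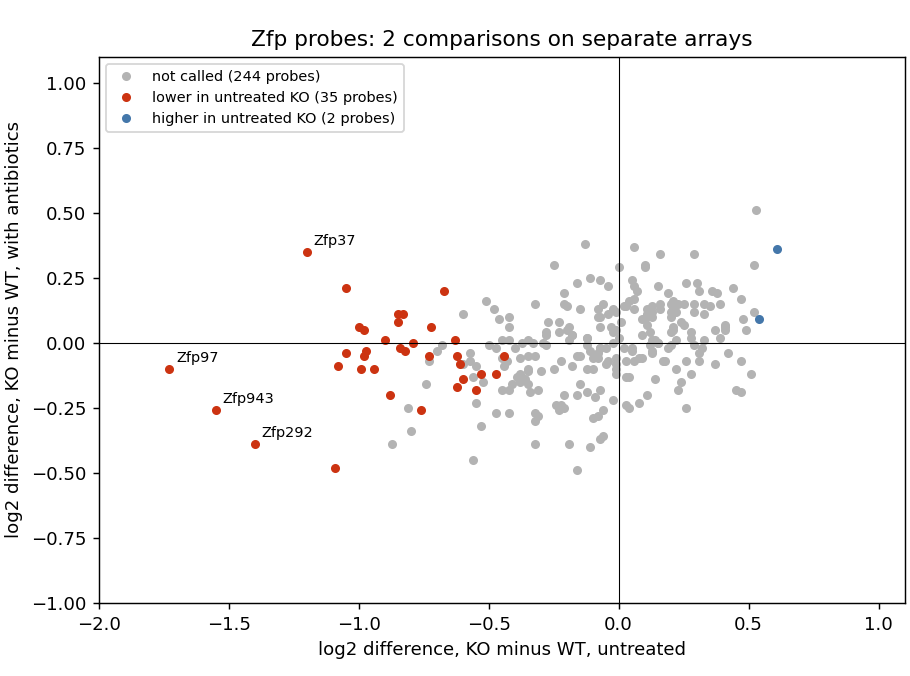
Log2 difference, KO minus WT, of each of the 281 Zfp probes in untreated mice (horizontal) and in mice given antibiotics (vertical), which rest on separate arrays. The 35 probes called lower when untreated (red) spread from -1.73 to -0.44 along the horizontal axis, on which they were selected. Along the vertical one they spread from -0.48 to 0.35.

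Whether the effect of the antibiotic differed between the genotypes was tested as an interaction, the antibiotic difference in KO minus that in WT. By limma 0 of 281 Zfp probes were called (0.01% of all tested probes were). An unadjusted p under 0.05 was reached by 32 Zfp probes, 28 above 0 and 4 below. It was reached by 1755 of all tested probes, or 8.78%, 732 above 0 and 1023 below. Zfp37 came closest, at 1.55 (adjusted p = 0.129), followed by Zfp97 at 1.63 (adjusted p = 0.346), Zfp943 at 1.29 (adjusted p = 0.355), Zfp654 at 1.26 (adjusted p = 0.465) and Zfp644 at 1.03 (adjusted p = 0.465). Of the 35 probes called lower in untreated KO mice 26 had an unadjusted p under 0.05 in this test, which uses the same untreated arrays, and their median was 0.84. A smaller genotype difference under antibiotics was thus not shown by the adjusted test for any Zfp probe. The interaction also uses the KO_untreated arrays, and what their suffix marks cannot be told apart from it.

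In WT mice few Zfp genes changed with the antibiotic. Zfp707, Zfp362 and Zfp653 rose and Zfp148 fell, 4 of 281 probes or 1.42%, where 4.75% of all tested probes were called; 1.07% and 0.356% rose and fell, against 2.49% and 2.27%. Zfp148, which binds GC-rich promoters and is known as ZBP-89, had levels of 8.26, 8.11, 8.29, 8.56 and 8.29 in WT_untreated and of 7.04, 7.27, 7.89, 7.42 and 7.47 in WT_antibiotic, with no overlap (log2 -0.88, SE 0.22, adjusted p = 0.0248 by limma). Its second probe (ILMN_2427349) differed by -0.73 and was not called (adjusted p = 0.102 by limma). Zfp707 stood at 7.71, 7.38, 6.64, 7.27 and 7.69 untreated and at 7.65, 8.3, 8.71, 7.93 and 8.35 with the antibiotic, with a small overlap (log2 0.85, SE 0.22, adjusted p = 0.0281). Zfp362 had levels of 8.34, 8.22, 7.4, 7.98 and 7.62 untreated and of 8.95, 8.43, 8.63, 8.59 and 8.53 with it, which did not overlap (log2 0.71, SE 0.19, adjusted p = 0.03). Zfp653 rose by 0.51 (adjusted p = 0.0492). Between the same groups the mean of the crypt and dividing cell markers went from 6.55 to 7.05 untreated to 5.74 to 6.61 with the antibiotic, with 4 of 10 probes lower, and of 18 surface colonocyte probes 3 were higher and 1 lower. Called lower were 40% of crypt and dividing cell probes and 5.56% of surface colonocyte probes, against 2.27% of all tested probes. Called higher were 16.7% of surface colonocyte probes, against 2.49%. The part of these markers in the Zfp changes was not tested.

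These 4 calls depended on single arrays. None was called in every fit that left out 1 array: the count was 0 without WT_untreated 3 or WT_antibiotic 5, 1 without WT_untreated 4, WT_antibiotic 1 or WT_antibiotic 4, 2 without WT_antibiotic 2, 7 without WT_untreated 2 or KO_antibiotic 6, and 8 without WT_antibiotic 3. It was 1 higher and 1 lower with scaling by the median of fully detected probes, and 0 with median scaling over all probes, where all tested probes split into 76 higher and 161 lower in place of 497 and 453.

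In KO mice 7 Zfp probes rose with the antibiotic and 2 fell, of Zfp518b and Zfp275, 3.2% of the 281 where 12.4% of all tested probes were called. The suffix is on every KO_untreated array except KO_untreated 1 and on no KO_antibiotic array. What it marks and the antibiotic thus cannot be told apart in this comparison. The rises were 2.49% of Zfp probes against 5.33% of all, and the falls 0.712% against 7.06%, and the median difference was 0.11 against 0.01. Zfp37, the gene with the largest rise, went from 4.88, 5.52 and 5.96 (lowest, median, highest) in KO_untreated to 5.82, 6.52 and 7.47 in KO_antibiotic, a 2.15-fold rise (log2 1.1, SE 0.23, adjusted p = 0.00181 by limma) with a small overlap. Zfp512b had the lowest adjusted p: its levels were 7.15, 7.4 and 7.68 in KO_untreated and 7.93, 8.12 and 8.37 in KO_antibiotic, with no overlap (log2 0.74, SE 0.14, adjusted p = 0.000642). Zfp97 (0.97, adjusted p = 0.0316), Zfp119a (0.91, adjusted p = 0.00472), Zfp560 (0.65, adjusted p = 0.00576) and Zfp791 (0.64, adjusted p = 0.0403) rose too, as did Zfp362 (0.56, adjusted p = 0.0347), the Zfp probe called with antibiotic in both genotypes.

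In these groups too the crypt and dividing cell markers were lower with the antibiotic, with a mean of 5.96 to 6.62 against 6.85 to 7.34 and 5 of 10 probes called lower, and of 18 surface colonocyte probes 4 were higher and 1 lower. Of 18 leukocyte probes 3 were lower. Called lower were 50% of crypt and dividing cell probes, 16.7% of leukocyte probes and 5.56% of surface colonocyte probes, against 7.06% of all tested probes. Called higher were 22.2% of surface colonocyte probes, against 5.33%. The part of these markers in the Zfp changes was not tested.

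Zfp37, Zfp97 and Zfp119a were both lower in untreated KO than in untreated WT mice and higher in KO mice with the antibiotic than without, but these comparisons share the KO_untreated arrays. The 35 lower probes had a median of 0.34 for the antibiotic in KO mice (3 called) and of -0.50 in WT mice (0 called), each measured against untreated arrays that the first comparison also used. Zfp518b fell by 0.62 (adjusted p = 0.0388) and Zfp275 by 0.54 (adjusted p = 0.0395). Zfp37, Zfp119a, Zfp512b and Zfp560 stayed called without any 1 array, while the count was 5 without KO_untreated 4 and 15 without KO_antibiotic 2. With median scaling over all probes it was 2, both higher, and all tested probes split into 377 higher and 906 lower in place of 1066 and 1412.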

How the data were processed

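The deposited scanner table gives, per the file headers, a mean bead signal (an intensity on a linear scale) and a detection p-value for each of 45281 probes on 22 arrays; image processing is not stated in the labels. The authors' processed table of intensity values was quantile normalised, as read from its values (identical sorted columns), and served as an alternative. Signals were background-corrected and quantile normalised with neqc (limma 3.58.1, R 4.3.3, offset 16). The 19993 probes with a detection p under 0.05 on at least 5 arrays entered 1 limma fit (lmFit, eBayes, two-sided) with a mean per group. P-values were adjusted by the Benjamini-Hochberg method across the tested probes and called under 0.05, and the fit was tested on simulated data. They measure only the spread between these samples, which may be technical and whose number limits the precision: the median standard error over the Zfp probes was 0.179 for KO against WT. Members and gene lists were chosen with earlier results of these data known. Named are the called probes with the largest changes (12 in each direction for untreated KO against WT, 6 for the others), the 5 smallest p where fewer than 3 were called, and genes with described roles or discordant probes; genes named for chromosome, neighbourhood or a described role in the lower set were chosen after their values were seen. Symbols came from the platform annotation, and all 198 genes matched the GRCm38.p6 gene table. Finger counts and KRAB domains of the proteins were not analysed here.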

Additional observations from a re-analysis of the deposited data

Results flagged for a closer look

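Single arrays far from their group were looked for in 24 Zfp probes and in the median deviation of the members (100 groups of arrays). By Dixon's criterion 6 values stood apart, all of them of single probes, where chance gives about 1 in 20 groups. In KO_untreated the array numbered 1 was low for Zfp292 (ILMN_1249547, 5.6, with the next at 6.72) and for Zfp148 (7.06, with the next at 7.79). In WT_antibiotic the array numbered 2 was low for Zfp292 (ILMN_1258687, 6.51, with the next at 7.68) and for Zfp280d (4.73, with the next at 5.91). In KO_antibiotic the array numbered 6 was high for Zfp654 (6.92, with the next at 5.84) and for Zfp148 (8.55, with the next at 7.53). On the same arrays 16366, 16100 and 17675 probes were detected in all, within an overall range of 15975 to 18388, and the part of array quality in these values was not tested.

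For 2 probes every WT_antibiotic array lay below the WT_untreated mean and every KO_antibiotic array above the KO_untreated mean. Zfp37 differed by -0.45 in WT and 1.1 in KO mice, a difference of 1.55 that did not pass by limma (adjusted p = 0.129). Zfp654 (ILMN_2613851) differed by -0.79 and 0.48, a difference of 1.26 that did not pass either (adjusted p = 0.465).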

How the results depend on the processing

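No difference of a called, named Zfp probe changed sign under any alternative run, while 19 values of 10 uncalled ones, such as those of Zfp106, Zfp207 and Zfp91, did. The count of Zfp probes called in untreated KO against WT, 37, was 5 with median scaling over all probes, 15 with no filter and 57 with the replicate block, and it ranged from 15 to 43 with 1 array left out; 9 of the 37 were called in all 22 such fits. For the antibiotic in WT, 4, it was 0 with median scaling over all probes, 2 with scaling by the median of fully detected probes, 0 with no filter, 7 with the replicate block and 0 to 8 with 1 array left out. For the antibiotic in KO, 9, it was 2, 8, 5, 12 and 5 to 15 in the same order, and 20 with detected probes per array as a covariate. With KO_untreated 1 as the only KO_untreated array, assumed to vary like the other groups, the counts were 1 untreated and 1 for the antibiotic in KO, neither among the probes called with all arrays. With no filter more probes were tested; the cause of the other changes was not tested. The 2 other counts, of KO against WT with antibiotics and of the interaction, were 0 in every alternative run. No background correction, the authors' values, the stricter filter (detection p under 0.01, 16644 probes), only the groups compared and, for the 3 comparisons that use them, the fit without KO_antibiotic 3 and 4 kept each count within 1.5 times. The labels do not say whether the replicate numbers pair the samples. Correlations of same-numbered deviations ran from -0.35 to 0.53, which cannot settle it. Of the values of named probes with no array left out, 591 kept their call, or stayed uncalled and moved by under 1 SD. Another 96 lost and 10 gained a call, and 31 stayed uncalled but moved by over 1 SD. The planned slide block was not run because slides are not named in the files. Dim signal limits these results: only 128 of 281 probes were detected on all arrays.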
